A study of Homo sapiens with 18 samples.

Results

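Open chromatin was measured by bulk ATAC-seq, in which a transposase cuts and tags accessible DNA, in Ccd18-Co, an established line of human colon fibroblasts. The peaks described here lie where human chromosomes are hardest to assemble. They were selected by position in the hg38 genome, with the centre of the peak on chromosome 13, 14, 21, 22 or 15 below 20, 20, 15, 17 and 24 Mb respectively, or on chromosome 4 between 48 and 53 Mb. This rule found 1780 of the 334857 peaks, of which 1473 lay on the 5 acrocentric chromosomes (149 on chromosome 13, 131 on chromosome 14, 511 on chromosome 15, 481 on chromosome 21 and 201 on chromosome 22) and 307 around the centromere of chromosome 4. The intervals were chosen after earlier results of these counts had been seen, so the shares below are descriptions of the chosen peaks and no test was run on them as a set.

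The 18 libraries formed 3 groups of 6. Unstimulated cells received neither cytokines nor compound. The other groups were pulsed 3 times with TNF, OSM and IL-17A at 10 ng/ml each and IL-1B at 0.1 ng/ml, each pulse lasting 72 h and followed by 96 h of recovery, rested for 1 week, and then given either the vehicle DMSO or 250 nM belinostat, an inhibitor of histone deacetylases, for 5 days. Cells were collected 2 weeks later. The labels give these doses, and the text of the study gives another for belinostat and more than 1 for IL-1B. All groups come from a single commercial cell line kept at up to passage 20, and the labels do not say whether the 6 libraries of a group were separate cultures, so that p-values measure only the spread between these libraries, which may be technical. The cytokine contrast is DMSO against unstimulated, the belinostat contrast is belinostat against DMSO, and the residual contrast is belinostat against unstimulated. By the labels the unstimulated cells had no days of vehicle and no stated times of rest and collection. In the cytokine contrast the pulses therefore cannot be told apart from vehicle and handling, and the residual contrast adds belinostat to these. A peak is called opened or closed where its count was higher or lower at an adjusted p under 0.05 in edgeR's quasi-likelihood test across all peaks.

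The short arms of the acrocentric chromosomes carry the ribosomal DNA, tandem arrays of the genes for ribosomal RNA that form the nucleolus, between blocks of satellite repeats. Next to them lie segmental duplications, long stretches copied with few differences between chromosomes, which hold many pseudogenes and few expressed protein-coding genes. Much of this chromatin is heterochromatin, and centromeres are flanked by it as well. A short read from such a place may match several positions equally well, and how the authors placed such reads is not given in the sources used here.

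Total counts in peaks ran from 4661678 to 11352032 per library. Library 6 of the unstimulated group stood apart, with 11.29% of all peaks at a count of 0 against 0.38% to 5.35% in the other 17 libraries, and the main shares opened are given without it as well. Of 8 fibroblast genes, 7 had a peak at their start (COL1A1, a chain of type I collagen, a mean count of 427) and THY1 had none, and the median over all 8, with an absent peak as 0, was 170. Of 9 genes of epithelium, leukocytes, endothelium and muscle, 6 had a start peak and PTPRC, CDH5 and KRT20 had none, and the median over all 9, counted in the same way, was 3.17.

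The sequences that the results turn on are written 5′ to 3′ from hg38, in lower case, with capitals only where stated. The peak beside the centromere gap of chromosome 4 with the highest mean count shows the satellite unit of 5 bases, GGAAT or its reverse complement ATTCC, here at chr4:49120376-49120675 on the plus strand with the 39 units in capitals.
satellite beside the centromere: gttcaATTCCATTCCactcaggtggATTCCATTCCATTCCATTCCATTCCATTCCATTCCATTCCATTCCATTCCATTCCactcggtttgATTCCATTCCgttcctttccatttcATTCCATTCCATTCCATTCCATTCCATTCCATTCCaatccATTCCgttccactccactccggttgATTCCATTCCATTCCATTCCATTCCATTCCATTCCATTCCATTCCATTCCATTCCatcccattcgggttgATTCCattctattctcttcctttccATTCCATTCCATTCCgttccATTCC
Among called members whose average log2 CPM was not below 0 and whose groups did not overlap, the largest rise in the cytokine contrast was in the gene PSLNR. Its sequence at chr22:15776807-15777106 on the plus strand has a copy at chr14:19345538-19345837 on the minus strand that differs at 1 base, in capitals in both.
chromosome 22: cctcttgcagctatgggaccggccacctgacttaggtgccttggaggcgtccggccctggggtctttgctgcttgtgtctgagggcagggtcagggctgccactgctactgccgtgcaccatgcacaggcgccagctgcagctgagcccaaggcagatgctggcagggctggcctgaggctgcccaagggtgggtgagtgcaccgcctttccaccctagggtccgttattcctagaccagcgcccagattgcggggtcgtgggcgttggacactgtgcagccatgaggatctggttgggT
chromosome 14: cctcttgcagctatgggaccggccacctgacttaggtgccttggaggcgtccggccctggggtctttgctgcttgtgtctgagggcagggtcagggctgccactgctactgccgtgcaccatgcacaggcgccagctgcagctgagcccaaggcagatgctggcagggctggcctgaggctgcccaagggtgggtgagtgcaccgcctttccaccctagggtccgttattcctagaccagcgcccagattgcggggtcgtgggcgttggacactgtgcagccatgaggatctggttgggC
The next sequence stands for the first 7.1 Mb of chromosome 21, where hg38 repeats sequence of the long arm. The 300 bases at chr21:5067527-5067826 on the plus strand are identical to chr21:44194324-44194623 on the minus strand, inside another peak.
start of chromosome 21: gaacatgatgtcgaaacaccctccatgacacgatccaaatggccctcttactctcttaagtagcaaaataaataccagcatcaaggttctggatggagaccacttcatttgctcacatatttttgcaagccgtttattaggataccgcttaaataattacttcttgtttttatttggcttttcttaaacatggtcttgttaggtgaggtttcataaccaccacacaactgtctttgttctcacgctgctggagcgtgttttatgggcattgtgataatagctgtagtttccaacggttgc
The last is the whole peak at chr21:8388521-8388702 on the plus strand, just before RNA45SN3, a gene for the rRNA precursor, and an identical sequence lies before RNA45SN2.
before the rRNA precursor gene: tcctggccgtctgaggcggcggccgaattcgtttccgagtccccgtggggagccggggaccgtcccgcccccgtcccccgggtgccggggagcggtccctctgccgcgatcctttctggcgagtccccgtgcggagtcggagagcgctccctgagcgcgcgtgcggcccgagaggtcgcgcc

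Little of the intervals on chromosomes 13, 14, 15 and 22 is assembled, more of that on chromosome 21 and most of that on chromosome 4. Sequence was present for 3.829 of 20 Mb on chromosome 13, 3.684 of 20 Mb on chromosome 14, 6.71 of 24 Mb on chromosome 15, 8.439 of 15 Mb on chromosome 21, 5.553 of 17 Mb on chromosome 22 and 4.75 of 5 Mb on chromosome 4. The 1780 peaks stood at 54.0 per sequenced Mb, against 114 per Mb for all peaks. They were of usual strength and shape, with a median mean count of 6.19 reads per library against 6.0 for all peaks, a median width of 272 against 275 bp and a median GC content of 50% against 50.1%. They lay more often outside genes, with 49.9% intergenic against 31.7% of all peaks, and less often within 3 kb of a protein-coding start, 3.76% against 8.62%. Against this, 27.2% lay within 3 kb of the start of any annotated gene, pseudogenes and long non-coding RNAs included, compared with 17.9% of all peaks. How the peaks lie along each chromosome is shown in the plot of cytokine change by position.

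**Figure D1:**
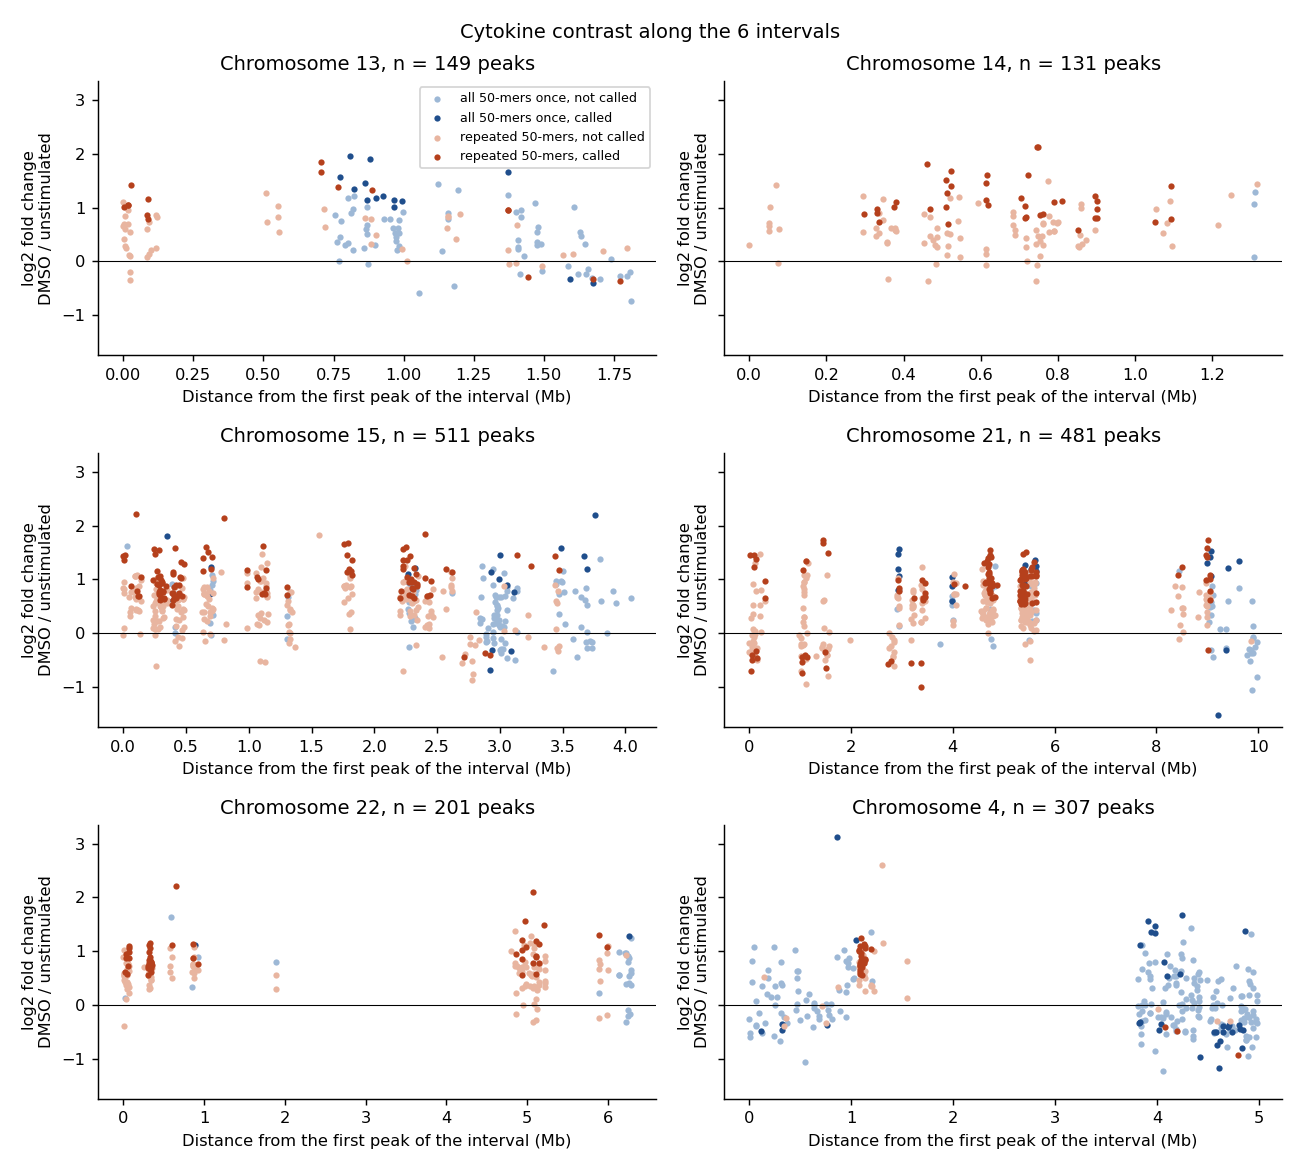
Cytokine log2 fold change (vertical axis) of each member peak against its place in Mb (horizontal axis, distance from the first peak of the interval) in the 6 intervals. Blue points have all words of 50 bases once and red points hold repeated words, dark points were called in either direction, and on chromosome 4 a group of risen repeated peaks lies just before the stretch without peaks.

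Repeated sequence set these peaks apart most. Words of 50 bases were read every 10 bases of each peak and counted in the reference on both strands. All words occurred once in 32.8% of the 1780 peaks, against 92.2% of all peaks, and no word occurred once in 17.1%, against 1.12%. The intervals differed widely in this, from 2.29% of peaks with all words once on chromosome 14, over 13.4% on chromosome 22, 17.0% on chromosome 21, 27.0% on chromosome 15 and 55.7% on chromosome 13, to 81.4% on chromosome 4. The number of copies was mostly low, with a median of 2 to 4 occurrences per word in 663 peaks and more than 4 in 7, at most 13 in a weak peak at chr4:49322671-49322826. Of the copies of words from chromosome 14 peaks, 47.4% lay in the chromosome 22 interval and 47.1% in that of chromosome 14 itself, and of those from chromosome 22, 61.6% lay in the chromosome 14 interval.

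After the cytokine pulses, far more of the acrocentric peaks were opened than closed. Of these 1473 peaks 382 were opened (25.9%) and 31 closed (2.1%), against 10.5% and 4.87% of peaks of equal mean count elsewhere. Over all 1780 members 416 were opened (23.4%) and 57 closed (3.2%) in the cytokine contrast, where 9.51% of all peaks were opened and 9.73% closed. Since weak peaks rose more often than strong ones across the genome, peaks elsewhere were weighted to the same distribution of mean counts, and of these 10.3% were opened and 5.73% closed. Median log2 fold changes were 0.60 for the members and 0.26 for peaks of equal count elsewhere. The direction of most calls depended on the scaling. Scaled on the weaker 50% of peaks, 54 members were opened and 180 closed, and scaled on library totals, 646 were opened and 16 closed. Shares of other peaks on these scales are not beside these counts, which show only how the members' calls moved. The difference in medians depended less on the scaling, at 0.15 against −0.19 on the weaker peaks and 0.81 against 0.47 on totals. A loess correction of each library for peak strength gave 0.34 against 0.03 and called 216 members opened (12.1%, against 1.95% at equal count). The median of all peaks was 0.13 in the main fit and −0.32, 0.34 and 0.01 in these alternatives. Without unstimulated library 6, 256 members were opened (14.4%, against 5.98% at equal count), 230 of them acrocentric (15.6%, against 6.09%).

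In the main fit the share opened exceeded that of equally strong peaks by more in each acrocentric interval than on chromosome 4. Opened peaks made up 16.8% on chromosome 13 (25 peaks), 29% on chromosome 14 (38), 25.2% on chromosome 15 (129), 28.3% on chromosome 21 (136) and 26.9% on chromosome 22 (54), where peaks of equal count elsewhere gave between 9.83% and 11.2%. On chromosome 4, 34 peaks were opened (11.1%, against 9.3%) and 26 closed (8.47%, against 9.88%). The median log2 fold change lay between 0.60 and 0.71 in the 5 acrocentric intervals and was 0.08 on chromosome 4. On the weaker-peak scale the acrocentric medians stayed above 0, from 0.15 to 0.26, and that of chromosome 4 was −0.37. After the loess correction the share opened was 2.01% on chromosome 13 (3 peaks), against 1.55% at equal count. It was 13.0% on chromosome 14, against 1.75%, 16.2% on chromosome 21, against 2.16%, and 16.9% on chromosome 22, against 1.96%. On chromosome 15, 58 of 511 peaks were then opened, against 1.81% at equal count. On chromosome 4 the share was 8.47% (26 peaks), against 2.13%, a larger excess than on chromosome 13. The order given for the main fit thus did not hold for chromosome 13 after this correction. None was closed on chromosomes 14 and 22 by edgeR or by DESeq2, and none there was lower at an unadjusted p under 0.05. The shares of each interval beside those at equal count are drawn in the plot of called shares.

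**Figure D2:**
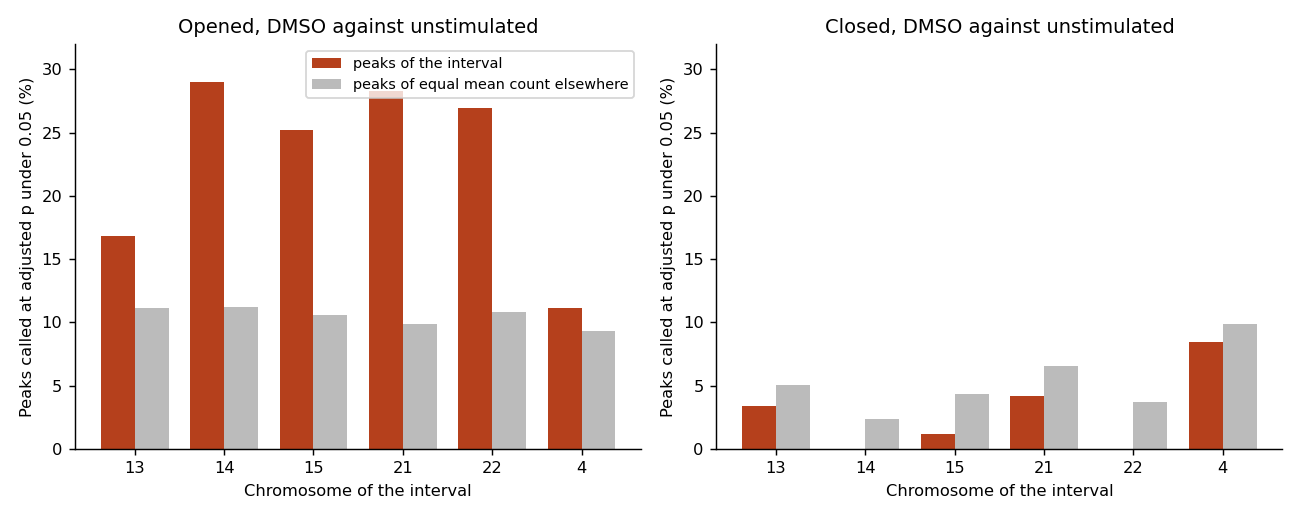
Share of peaks opened and closed in the cytokine contrast, in percent, for each interval (bars) beside peaks of equal mean count elsewhere. The share opened in the main fit is above that of equally strong peaks in all 6 intervals. The margin is the least on chromosome 4, at 11.1% against 9.3%.

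Counts can also be compared within each library, with no scaling between libraries, by dividing the reads found in the members by the reads expected had they spread over the libraries as equally strong peaks elsewhere did. For the 5 acrocentric intervals together this ratio ran from 0.656 to 0.895 in the 6 unstimulated libraries, with a median of 0.856, from 0.92 to 1.18 in the DMSO libraries, with a median of 1.08, and from 0.871 to 1.31 in the belinostat libraries, with a median of 1.13. Every DMSO library lay above every unstimulated library, while the belinostat libraries overlapped both groups. Unstimulated library 6, DMSO library 3 and belinostat library 1 were the lowest of their groups, and unstimulated library 5, DMSO library 4 and belinostat library 4 the highest. The share of all reads that fell in the weaker 50% of peaks was lowest and highest in these same libraries, at 4.5% and 7.73%, 8.36% and 12.0%, and 8.27% and 15.5%, and its part in the result was not tested. Its median rose from 7.03% in unstimulated to 10.9% in DMSO libraries, a ratio of 1.55, and the ratio was 1.56 for acrocentric peaks with a mean count under 50. Read as shares of all counts, these ratios were nearly equal, while the ratio of reads found to reads expected compares peaks of the same strength.

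**Figure D3:**
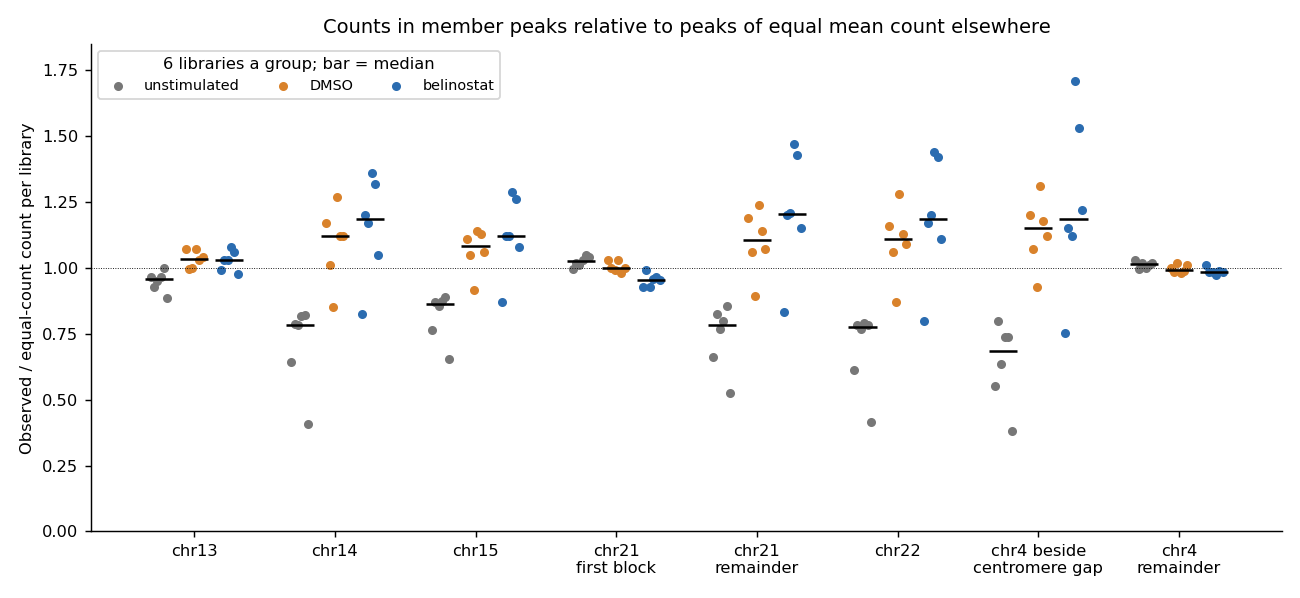
Reads found over reads expected from equally strong peaks elsewhere (vertical axis, no unit) for each of the 18 libraries, by group, with bars at the group medians, in each interval and in parts of chromosomes 21 and 4. The first block of chromosome 21 and the remainder of chromosome 4 stay between 0.926 and 1.05, while beside the centromere gap of chromosome 4 the values run from 0.381 to 1.71.

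Peaks of unique sequence showed the difference to a lesser degree. Among acrocentric peaks with all words once, 15.6% were opened, against 11.0% of peaks of the same class and equal count elsewhere. Among those with part of their words repeated it was 34.2% against 11.5%, and among those with most words repeated 25% against 14.5%. The ratio of reads found to reads expected in the unique class had medians of 0.936, 1.04 and 1.05 in the same order of groups. In unique peaks alone, the share of counts held by all members was 1.07 times as high in DMSO as in unstimulated libraries. Over unique and repeated members together it was 1.26 times as high. Of the 583 unique members 250 lay on chromosome 4, where the ratio over all its members was 1.02. The value of 1.07 thus also reflects which intervals the unique members lie in. In a bulk library a larger share of cells with an open site, a more open site in each cell and more copies of the site cannot be told apart.

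The ribosomal DNA held the highest counts of all members. Hg38 places 30 of the peaks in a block of chromosome 21 with 12 annotated rRNA genes, and 26 of these peaks had no word that occurred once. The stronger of its 2 leading peaks ranged from 238 to 746 reads in unstimulated libraries, with a median of 467.5, from 525 to 982 in DMSO libraries, with a median of 765.5, and from 402 to 986 in belinostat libraries, with a median of 658. On the log2 CPM scale all DMSO libraries lay above all unstimulated ones, and the fitted cytokine log2 fold change was 0.66 (SE 0.11, edgeR adjusted p = 3.91e-06). Belinostat and DMSO libraries overlapped, and in the main fit their log2 fold change of 0.18 did not pass the test (edgeR adjusted p = 0.412). After the loess correction this peak was called opened in the belinostat contrast, at 0.45 (edgeR adjusted p = 0.000356), so the call depended on the correction. The other, a near copy of it, had medians of 494, 746.5 and 677 reads in the same order of groups and a cytokine log2 fold change of 0.61 (edgeR adjusted p = 2.32e-05), with overlapping groups. Its belinostat change was 0.15 (edgeR adjusted p = 0.48), and 0.42 after the loess correction (edgeR adjusted p = 0.000756). The ratio of the 2 peaks ran only from 0.928 to 1.13 over the 18 libraries, with a median of 0.998, so they are not separate measurements.

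These strong peaks were not the starts of the rRNA precursor genes. Only RNA45SN2 and RNA45SN3 had a peak within 500 bp of their start, and both peaks were weak. The peak before RNA45SN3, at chr21:8388521-8388702, had 6 to 11 reads in unstimulated libraries (median 10.0), 2 to 8 in DMSO libraries (median 4.5) and 2 to 9 in belinostat libraries (median 6.0). It was closed in the cytokine contrast, at −1.0 (SE 0.34, edgeR adjusted p = 0.0268), with overlapping groups. The peak before RNA45SN2, at chr21:8205475-8205654, whose sequence is identical, had a log2 fold change of 0.47 (SE 0.39, edgeR adjusted p = 0.407). These estimates of opposite sign come from the same sequence. In the block as a whole 7 peaks were opened (23.3%, against 9.28% at equal count) and 2 closed (6.67%, against 12.0%), and its share of all counts had a ratio of 1.67 between DMSO and unstimulated libraries.

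Beside the centromere of chromosome 4 many peaks were opened. Between 49 and 50 Mb, a stretch drawn after the values were seen, 23 of 51 peaks were opened (45.1%, against 9.2% at equal count) and none was closed, by edgeR or DESeq2 or at an unadjusted p under 0.05. No further peak followed until 51.83 Mb, beyond the centromere gap. The fitted log2 fold change was above 0 in 51 of the 51, with a median of 0.76 against 0.19. Without unstimulated library 6, 17 of them were opened (33.3%, against 5.43%). In the remaining 256 peaks of the interval, 11 were opened (4.3%, against 9.32%), 26 were closed (10.2%, against 10.6%) and the median was −0.06. On the scale of library totals that median was 0.15, and on the weaker peaks −0.52.

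Most of the opened peaks in this stretch held the satellite unit in tandem. Of its 51 peaks 35 held GGAAT at least 2 times in a row within the 300 bases around their centre. Of these 35, 21 were opened (60.0%, against 7.8% at equal count), with a median log2 fold change of 0.78 against 0.02. Of the 16 without the repeat 2 were opened (12.5%, against 12.3%), with a median of 0.60 against 0.55. The strongest of the 35, at chr4:49119856-49121195, had 17 to 56 reads in unstimulated libraries (median 32.5), 37 to 75 in DMSO libraries (median 54.0) and 22 to 87 in belinostat libraries (median 53.5). Its groups overlapped, and its cytokine log2 fold change was 0.70 (SE 0.16, edgeR adjusted p = 0.00122). Among all members 61 held the repeat (3.43%, against 0.208% of all peaks), 36 of them on chromosome 4 and 22 on chromosome 21, and 32 were opened (52.5%, against 8.85% at equal count) and none closed, by edgeR or DESeq2 or at an unadjusted p under 0.05. Outside the intervals 636 peaks held it, of which 44 were opened (6.92%, against 9.04%) and 106 closed (16.7%, against 10.8%). The unit overlaps GGAATG, a word bound by the TEAD transcription factors, which occurs 34 times in the printed satellite on either strand, and a count of that word here is a count of satellite.

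The first 7.1 Mb of chromosome 21 stood apart from the rest of the acrocentric sequence. Of 95 peaks there, 11 were opened (11.6%, against 8.59% at equal count) and 12 closed (12.6%, against 10.6%), with a median log2 fold change of −0.01 that became 0.20 on library totals and −0.48 on the weaker peaks. From 7.1 Mb on, 125 of 386 peaks were opened (32.4%, against 10.1%) and 8 closed. The boundary was drawn after the values were seen. Without unstimulated library 6, 7 peaks were opened before it (7.37%, against 4.96%) and 79 after it (20.5%, against 5.97%). Of the copies of words from the first block, 80.9% lay between 43 and 45 Mb on the long arm of the same chromosome, and 77.2% of those lay inside another peak. In the order of groups used above, the peak at chr21:5067354-5067999 had medians of 121, 92.5 and 48.5 reads and fell by 0.50 in the cytokine contrast (edgeR adjusted p = 0.00233). The peak at chr21:44194232-44194783, which holds the same sequence, had medians of 103.5, 82.5 and 45 and fell by 0.45 (edgeR adjusted p = 0.00724). After the loess correction neither cytokine call remained, at −0.16 and −0.13 (edgeR adjusted p = 0.298 and 0.458). Both were also lower in belinostat than in DMSO libraries, by −0.60 and −0.57 (edgeR adjusted p = 0.00319 and 0.00986). The ratio of reads found to reads expected stayed between 0.926 and 1.05 in this block in all 18 libraries, with medians of 1.03, 1.0 and 0.956 in the same order of groups. Every belinostat library (0.926 to 0.993) lay below every unstimulated library (0.995 to 1.05). In the residual contrast 20 of the 95 peaks were opened (21.1%, against 15.9% at equal count) and 23 closed (24.2%, against 16.2%), with a median log2 fold change of −0.10 against 0.30.

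Peaks that are copies of each other had nearly the same counts. There were 149 pairs, involving 164 members, in which at least 80% of the words of a member occur in another peak, and in the 76 pairs of similar width the median difference of their total counts was 0.154 on the log2 scale, with 72 pairs within 0.5 and a largest difference of 1.09. In 9 of these pairs both peaks were opened and in 9 only 1 was. The strongest peak of chromosome 14, in the pseudogene MED15P6 at chr14:19485958-19487132, had a mean count of 28.1 and a cytokine log2 fold change of 0.97 (SE 0.20, edgeR adjusted p = 0.000256). Its copy on chromosome 22, in MED15P7 at chr22:15637373-15638456, had a mean count of 25.9 and a change of 0.56 (SE 0.20, edgeR adjusted p = 0.0323). The central 300 bases of the first differ from the copy at 2 bases.

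**Figure D4:**
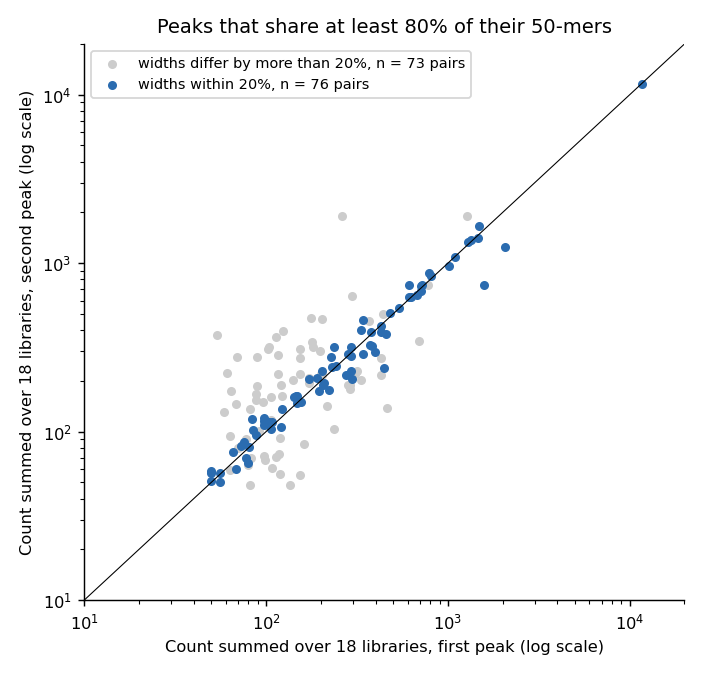
Count summed over the 18 libraries of a peak (horizontal axis, log scale) against that of a peak sharing at least 80% of its words (vertical axis, log scale), with at least 1 of them a member, for all pairs. The 76 pairs with widths within 20% lie close to the line of equal counts.

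Among called members with groups that did not overlap, the largest cytokine rises were in weak peaks of pseudogenes and non-coding genes. Members with an average log2 CPM below 0 were left out. In PSLNR, a long non-coding RNA gene, the peak at chr22:15776773-15777140 had 1 to 4 reads in unstimulated libraries (median 2.0), 5 to 22 in DMSO libraries (median 7.5) and 3 to 8 in belinostat libraries (median 4.5). Its cytokine log2 fold change was 2.09 (SE 0.41, edgeR adjusted p = 0.000111). The peak over its chromosome 14 copy, at chr14:19345535-19345824, had medians of 3.5, 6.5 and 4.5 reads and a change of 0.72 (SE 0.39, edgeR adjusted p = 0.178), which did not pass the test. A peak in PHF2P2, a pseudogene of a histone demethylase, at chr13:18961341-18961607 had medians of 2.0, 7.0 and 8.0 reads and rose by 1.58 (SE 0.43, edgeR adjusted p = 0.00587). A peak in PPP6R2P1, a pseudogene of a phosphatase subunit, at chr21:14007546-14007754 had medians of 3.0, 8.5 and 6.5 reads and rose by 1.58 (SE 0.43, edgeR adjusted p = 0.00574). On the log2 CPM scale every DMSO library lay above every unstimulated library in all 3, on counts of at most 22 reads. After the loess correction the last pair lost their call, at edgeR adjusted p = 0.0636 in PHF2P2 and 0.0749 in PPP6R2P1.

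Several gene bodies held a larger share of opened peaks than the 9.51% of all peaks. In RHPN2P1, a pseudogene of rhophilin 2, all 31 peaks had a log2 fold change above 0 and 15 were opened. The long non-coding gene ENSG00000290523 on chromosome 21 had 14 of 33 opened, HERC2P3, a pseudogene of a ubiquitin ligase, 8 of 32, DUXAP10 and DUXAP9, pseudogenes of a double homeobox family, 8 and 6 of 18, and PHF2P2 6 of 24. TPTE, a phosphatase gene expressed in testis, had 5 of 29 opened. Others did not. CYFIP1, a regulator of actin and translation, had 3 opened and 3 closed of 35, the chromosome 21 genes ENSG00000235609 and LINC02246 had no call in 14 and 11 peaks, and ENSG00000276076 had 1 opened and 2 closed of 10. On chromosome 4, 8 of 21 peaks were closed in the long non-coding gene LINC01618 and 3 of 13 in USP46, which encodes a deubiquitinase, where 9.73% of all peaks were closed. In SCFD2, also there, 1 of 28 was opened and none closed, and in TEC, a tyrosine kinase gene, none of 11 was called and 8 had a log2 fold change above 0.

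Under the rule for naming peaks, the largest falls in the cytokine contrast lay on chromosomes 4 and 21. That rule takes called members with groups that did not overlap and an average log2 CPM of at least 0. Called falls outside it, at RBM11 and before RNA45SN3, are given with those genes. In an intron of USP46 the peak at chr4:52618655-52619747 had 22 to 58 reads in unstimulated libraries (median 36.5), 12 to 20 in DMSO libraries (median 17.0) and 3 to 20 in belinostat libraries (median 14.0). It fell by 1.17 in the cytokine contrast (SE 0.19, edgeR adjusted p = 4.27e-06), without overlap of the groups, and by 1.25 in the residual contrast (SE 0.20, edgeR adjusted p = 3.93e-07). In LINC01618 the peak at chr4:52813432-52814053 had medians of 34.5, 18.5 and 10.5 reads and fell by 0.93 (SE 0.19, edgeR adjusted p = 0.000265), again without overlap. On chromosome 21 the peak at chr21:7744369-7745431 had medians of 89.0, 61.0 and 58.5 reads and fell by 0.58 (SE 0.13, edgeR adjusted p = 0.00114), a call that was lost after the loess correction, at −0.25 (edgeR adjusted p = 0.161). None of its words occurred once. A peak on the long arm that shares at least 80% of its words had a total count of 1364, against 1338 here. Which of the 2 places the fall belongs to cannot be told.

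**Figure D5:**
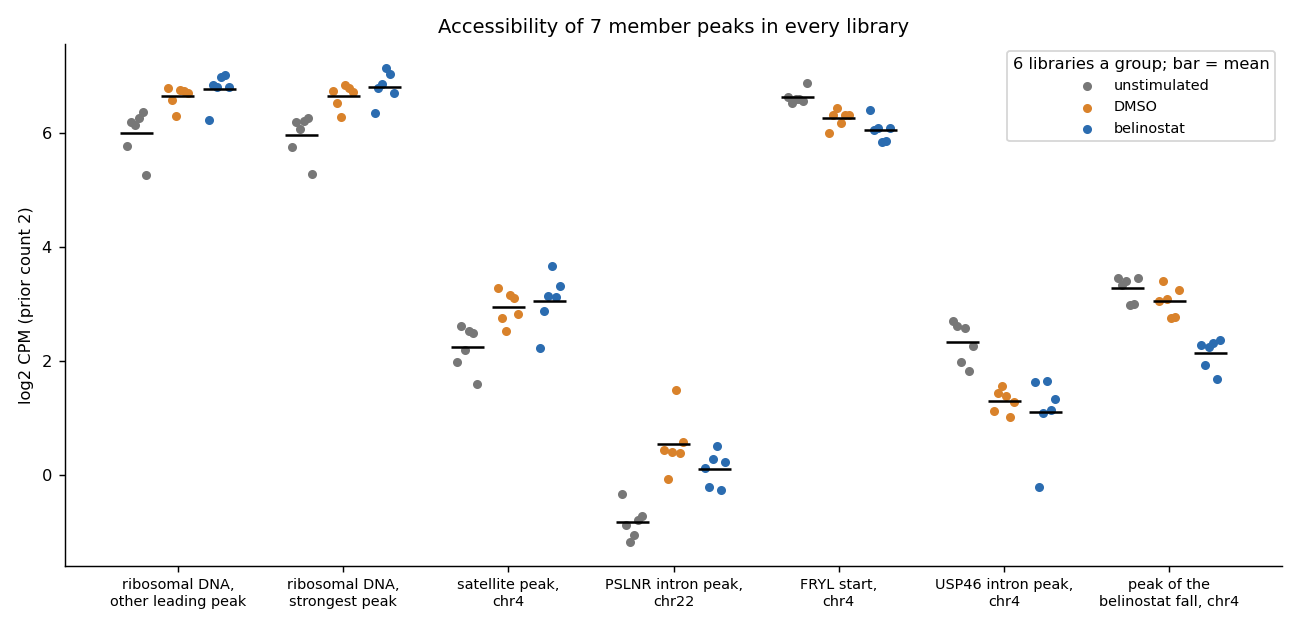
Log2 CPM (vertical axis) of named member peaks in each of the 18 libraries, by group, with bars at the group means. The PSLNR peak is higher and the FRYL and USP46 peaks are lower in all 6 DMSO libraries than in any unstimulated library, and the peak with the belinostat fall is lower in all 6 belinostat libraries than in any DMSO library.

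Most called gene starts were closed, as elsewhere at equal strength. Of the 31 members with their centre within 500 bp of a protein-coding start, 2 were opened and 17 closed (54.8%, against 44.3% of peaks of equal count elsewhere), with a median log2 fold change of −0.32 against −0.10. After the loess correction 1 was opened and 1 closed (3.23%, against 2.62%), with a median of 0.07. Of 70 listed genes of these regions 66 start within the intervals and 29 had a start peak, of which 2 were opened and 15 closed in the cytokine contrast and 4 and 16 in the residual contrast. In the belinostat contrast edgeR called none. In the POTE family of ankyrin-repeat genes 1 of 7 had a start peak, in the golgin family 1 of 9, and among the olfactory receptors, which detect odours in the nose, none of 14, while both TPTE genes had one. The 2 opened among the listed genes were TPTE2, with a log2 fold change of 0.96 (edgeR adjusted p = 0.0445), and TUBA3C, an alpha-tubulin, with 1.12 (edgeR adjusted p = 0.0105), both at overlapping counts. Start peaks of listed genes were not limited by their centre. That of TPTE2 has its centre 634 bp from the start and is not among the 31 members above.

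The closed starts included 4 of 5 listed genes of chromosome 13, 2 of 3 with a peak between the breakpoints of chromosome 15 deletions, both with a peak on chromosome 21 and 7 of 11 on chromosome 4. FRYL held the strongest of them, with 604 to 978 reads in unstimulated, 471 to 620 in DMSO and 338 to 457 in belinostat libraries, and fell by 0.37 (SE 0.10, edgeR adjusted p = 0.00599). Its groups did not overlap on the log2 CPM scale. ZMYM5 and ZMYM2, zinc finger genes on chromosome 13, fell by 0.32 and 0.37 (edgeR adjusted p = 0.0156 and 0.00587). HSPA13, an Hsp70-type chaperone on chromosome 21, fell by 0.32 (edgeR adjusted p = 0.0167), and NIPA2, a magnesium transporter on chromosome 15, by 0.37 (edgeR adjusted p = 0.00724). RBM11, an RNA-binding splicing regulator, fell by 1.51 (edgeR adjusted p = 0.0223) on medians of 6.0 and 2.0 reads. After the loess correction FRYL, ZMYM5, ZMYM2, HSPA13 and NIPA2 were no longer called, with log2 fold changes of 0.07, 0.11, 0.05, 0.12 and 0.02, while RBM11 remained closed, at −2.08 (edgeR adjusted p = 0.00357). The imprinted genes MKRN3, MAGEL2 and NDN of the Prader-Willi region each had a start peak, at −0.44, 0.53 and −0.27, and none passed the test.

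Strong members were opened more often than equally strong peaks elsewhere. Of 75 members with a mean count of at least 50, a limit drawn after the values were seen, 15 were opened (20.0%) and 40 closed (53.3%), where peaks of equal count elsewhere gave 0.337% and 61.0%. After the loess correction 17 were opened (22.7%, against 3.4%) and none was closed (4.13% at equal count). Of the 15 opened before it, 14 were acrocentric. Besides the ribosomal DNA they included a peak at chr15:20356550-20359099, with medians of 74.0, 120.5 and 105.0 reads and a cytokine log2 fold change of 0.69 (SE 0.13, edgeR adjusted p = 9.63e-05), and a peak at chr21:9246065-9249138, with medians of 57.0, 99.0 and 90 reads and a change of 0.87 (SE 0.14, edgeR adjusted p = 2.7e-06). The strongest peak of chromosome 22, at chr22:11066208-11068459, had medians of 38, 64 and 59 reads and a change of 0.75 (SE 0.15, edgeR adjusted p = 0.000286). These 3 were picked as examples after their values were seen.

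Belinostat after the cytokine pulses called few members. Against DMSO, 4 were opened (0.225%) and 7 closed (0.393%). Of all peaks 0.607% were opened and 1.75% closed, and of those of equal count 0.588% and 1.11%. At an unadjusted p under 0.05, 139 were higher and 63 lower, 7.81% and 3.54%, against 8.21% and 7.68% of all peaks, and DESeq2 called 2 opened and 8 closed among the 625 members to which it gave an adjusted p. The median log2 fold change was 0.09, against 0.08 at equal count. In the main fit the 61 satellite peaks had no call by edgeR or DESeq2, with 2 higher and 1 lower at an unadjusted p under 0.05, and the 30 ribosomal DNA peaks none, with 1 lower. After the loess correction 1 satellite peak was opened (1.64%, against 0.936% at equal count). Of the ribosomal DNA peaks 3 were then opened (10.0%, against 0.964%) and 1 closed (3.33%, against 1.52%). No rise met the rule for naming peaks, and 6 falls did. All 3 of the largest lay close together on chromosome 4 and were not called in the cytokine contrast. The peak at chr4:52431180-52431966, in the gene ENSG00000287999, had 52 to 84 reads in unstimulated libraries (median 71.0), 45 to 76 in DMSO libraries (median 58.0) and 18 to 33 in belinostat libraries (median 23.5), and fell by 0.96 (SE 0.16, edgeR adjusted p = 1.19e-05). The peak at chr4:52212529-52213157 had medians of 20.5, 18.5 and 5.5 reads and fell by 1.24 (SE 0.26, edgeR adjusted p = 0.00104), and that at chr4:52358798-52359385 had 33.5, 31.0 and 13.5 and fell by 0.82 (SE 0.20, edgeR adjusted p = 0.00736).

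After cytokines and belinostat together the acrocentric peaks were still high. In the contrast of belinostat with unstimulated cells 627 members were opened (35.2%) and 92 closed (5.17%), against 16.8% and 13.7% of all peaks and 17.8% and 8.58% at equal count. It shares the unstimulated libraries with the cytokine contrast, so that its counts are not a second measurement of them. The median log2 fold change was 0.70, against 0.34 at equal count. The share opened ran from 26.2% on chromosome 13 to 49.3% on chromosome 22, and was 16.6% on chromosome 4, where 16.2% of equally strong peaks were opened. Without unstimulated library 6, 469 members were opened (26.3%, against 13.1%). The largest rises were in PHF2P2, at 2.13 (SE 0.41, edgeR adjusted p = 1.61e-05), at chr15:22215489-22215945, at 1.76 (SE 0.34, edgeR adjusted p = 1.34e-05), and at chr14:19199084-19199426, at 1.74 (SE 0.40, edgeR adjusted p = 0.000413), all without overlap between groups. Scaled on the weaker 50% of peaks, 53 members were opened and 213 closed, and on library totals 971 and 42. As in the cytokine contrast, these counts stand without the shares of other peaks and show only how the members' calls moved. The median of the members was 0.10 against −0.26 at equal count on the first scale, and 1.0 against 0.64 on the second. The medians of all peaks were −0.40 and 0.50.

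None of the peaks at the limits of the intervals was called in the cytokine contrast in the main fit. Most were weak, and the 2 on chromosome 14 had mean counts of 2.94 and 2.5 reads. After the loess correction the last peak inside on chromosome 21 was called closed, at −1.07 (edgeR adjusted p = 0.0268). At 20 Mb on chromosome 13 the last peak inside changed by −0.73 and the first outside by −0.06, at 20 Mb on chromosome 14 by 1.44 and 1.21, at 24 Mb on chromosome 15 by 0.66 and 0.55, at 15 Mb on chromosome 21 by −0.81 and −0.58, and at 17 Mb on chromosome 22 by 0.65 and −0.29 on the log2 scale of the cytokine contrast. On chromosome 4 the peak just below 48 Mb changed by 0.81 and that just above by −0.26, and at 53 Mb the peak inside changed by −0.33 and that outside by −0.35.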

How the data were processed

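Per the methods of the study, the authors ran the ENCODE pipeline for ATAC-seq (adaptor trimming, alignment to hg38), discarded mitochondrial reads and duplicates, used MACS2 for peaks, left out blacklisted regions, merged peaks into a consensus set and counted reads per peak and library with csaw, and the submitters' notes also name ChIPseeker 1.34.1. The authors deposited these raw counts, which were used here as they stand. The deposited table's starts count from 0, and 1 was added. The members and gene lists were chosen with earlier results of these data known. Counts of all peaks with an average log2 CPM over −3 were fitted with edgeR 4.0.16 (R 4.3.3, quasi-likelihood, TMM factors over the peaks, 1 mean per group, all 18 libraries), with Benjamini-Hochberg adjustment over all 334857 peaks. Log2 CPM used a prior count of 2. Equal-count shares weight the peaks elsewhere to the members' distribution over 20 bins of mean count, and the found-over-expected ratios use 50 bins. Genes came from GENCODE release 44, rRNA genes from RefSeq. Named peaks were the strongest and the most repeated of each interval, the 3 largest rises and falls per contrast (adjusted p under 0.05, average log2 CPM of at least 0, no overlap), start peaks of listed genes and boundary peaks. Others were added for their sequence or strength after their values were seen. The fit was tested on simulated counts. Alternatives were library totals, TMM on the weaker 50% of peaks, loess offsets (span 0.3), other filters and thresholds, DESeq2 1.42.0, a replicate block and leaving out each library. Another was TMM over peak counts summed in 10 kb bins, which stands in for the study's bins of all reads. Intervals of counting error were not used, since replicate libraries carry the error. A further sequence is not reported here.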

Additional observations from a re-analysis of the deposited data

Results flagged for a closer look

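Among 189 groups of 6 libraries of the named peaks, 10 held a library whose log2 CPM lay far from the other 5, and chance alone gives about 1 in 20. At the start of FRYL on chromosome 4, unstimulated library 6 was at 6.88, and at the start of ZMYM5 on chromosome 13, belinostat library 1 was at 6.4. Belinostat library 1 also stood apart at the starts of SLC10A4 at 0.12, TPTE2 at −0.54 and GOLGA6L2 at −1.81, and DMSO library 1 at the start of GOLGA6L2 at −1.25. Unstimulated library 6 was at −1.16 at the DUXAP10 peak of chromosome 14, unstimulated library 5 at 0.24 at the most repeated peak of chromosome 15, and unstimulated library 4 at −1.38 at the most repeated peak of chromosome 4, where the other 5 unstimulated libraries were equal. In the USP46 intron belinostat library 2 was at −0.2.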

How the results depend on the processing

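For named peaks, 387 of 390 values under 26 alternatives to 15 results kept their direction and side of the threshold, 3 lost the call and none reversed. Members opened in the cytokine contrast (23.4%) were 36.3% with library totals, 3.03% with TMM on the weaker peaks, 12.1% with loess offsets, 40.2% with an average log2 CPM over 0, 14.4% with DESeq2, 11.0% among members with all words once and 9.78% at an adjusted p under 0.01; closed (3.2%) were 0.899%, 10.1%, 0.562%, 2.08% with DESeq2, 5.15% with all words once and 1.69% at 0.01. On the 5 acrocentric intervals alone, chosen after seeing the data, closed were 2.1%. Opened in the belinostat contrast (0.225%) were 0.562%, 0% on the weaker peaks, 0.618% with loess, 0.631% over 0, 0.343% with all words once, 0% at 0.01 and 0.136% on the acrocentric intervals alone; closed (0.393%) were 0.721% over 0, 1.28% with DESeq2 and 0.858% with all words once. Opened in the residual contrast (35.2%) were 54.6% with totals, 2.98% on the weaker peaks, 15.9% with loess, 54.0% over 0, 20.4% with all words once and 18.3% at 0.01; closed (5.17%) were 2.36%, 12.0%, 1.74%, 3.43% with DESeq2, 8.75% with all words once and 3.26% at 0.01. These shares show how the members' calls moved, and without the shares of other peaks they are not a comparison. The cause was not tested. The members' share of counts, 1.26 times as high in DMSO as in unstimulated and 1.34 times in belinostat, was 1.07 and 1.07 in unique peaks, and 1.37 in the first without chromosome 4. Of the 583 members with all words once 250 lay on chromosome 4, so values of that class mix it with the acrocentric intervals. Leaving out each library in turn gave 14.4% to 26.2% opened and 2.02% to 3.88% closed in the cytokine contrast, 0.0562% to 0.843% and 0.281% to 0.562% in the belinostat contrast, and 24.8% to 40.6% and 4.04% to 5.39% in the residual contrast. Replicate numbers did not pair the libraries, with correlations from −0.18 to 0.15, and with the replicate block 24.1%, 0.169% and 34.6% were opened and 3.43%, 0.449% and 5.22% closed. Median mean counts near 6 reads limit what single peaks can show.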

Other observations

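At the centres of the members the TEAD word GGAATG stood in 20.4% of members, against 21.4% of peaks of equal count elsewhere, and in 33.9% of those on chromosome 4. The AP-1 word TGANTCA stood in 11.6%, against 17.9% at equal count, and in 4.58% and 4.98% on chromosomes 14 and 22, against 17.2% and 17.9%. The CTCF core stood in 1.97%, against 2.56% at equal count. The telomere unit in tandem was found in 1 member and the CENP-B box in none. The median SD of log2 CPM among the 6 libraries of a group was 0.47, 0.41 and 0.47 for the members in unstimulated, DMSO and belinostat cells, and 0.42, 0.40 and 0.46 for peaks of equal count elsewhere.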
